A study of Mus musculus with 2 samples.

Results

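The genes of the integrins, of the intercellular adhesion molecules (ICAMs) and of the laminins were compared between small hepatocytes (SHs) and mature hepatocytes (MHs) of the adult mouse liver. They were taken by symbol, as every gene named Itga, Itgb, Icam, Lama, Lamb or Lamc with a chain number or letter, which gave 41 of the 43280 gene symbols in the count tables. Of these 41 genes, 26 encode integrin chains, 4 encode ICAMs and 11 encode laminin chains. At least 10 reads over both libraries were counted for 27 genes, and the other 14 had fewer. The data are poly(A) RNA reads of an Ion Proton sequencer, with 1 library of SHs and 1 library of MHs. Both were freshly isolated from the same C57BL6 mice by collagenase perfusion of the liver, without any genetic change or treatment, and the labels give the mice an age of 20 weeks. The methods name 3 mice for this experiment and a younger age for the mice of the study as a whole, and do not say whether the mice were pooled. MHs were the cells that sank at low speed and were freed of dead cells on Percoll, without sorting. SHs came from the supernatant and were sorted as cells without CD31, CD45 and EpCAM and with ICAM-1 on their surface, so that the product of Icam1, one of the genes described here, was itself a criterion of the sort.

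Integrins are receptors made of 1 α chain and 1 β chain that tie the cytoskeleton to the extracellular matrix or to other cells, and the pair of chains sets which ligand is bound. Laminins are large trimers of 1 α, 1 β and 1 γ chain and are a main part of basement membranes, and several integrins bind them. ICAMs are immunoglobulin-like surface proteins that leukocyte integrins bind. In the liver, hepatocytes face the blood of the sinusoids across the space of Disse, which lacks a continuous basement membrane, whereas vessels and bile ducts have one.

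Counts were divided by the total of counted reads of the same library and are given as RPM, reads in 1000000 counted reads. Counted reads numbered 16979136 in MHs and 42356444 in SHs, so 3 reads, the limit that a count of 0 allows, were 0.177 RPM in MHs and 0.0708 RPM in SHs. Ratios are given as the log2 ratio of SHs over MHs with 0.5 reads added to each count, with a 95% Clopper-Pearson interval. Intervals cover counting error only. Each condition had 1 library, so that the values compare these 2 libraries, no difference between the conditions could be tested, and no p-value is given. Every one of the 10 hepatocyte markers, such as Alb, Hnf4a, Cps1 and Tdo2, was within 2-fold between the libraries, and their summed level was 81217 RPM in MHs and 86085 RPM in SHs. Their median log2 ratio was 0.00, from -0.19 to 0.27. Of the sorting markers that were selected against, Pecam1 (CD31) was read 73 times in MHs and 8 times in SHs, Ptprc (CD45) 9 and 5 times, and Epcam 6 times and 1 time.

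The start regions of 6 of these genes are shown here because the genes stand for the patterns of reads described below. Icam1 is the gene of the sorting marker, and Icam4, its neighbour, was the gene with the highest ratio. Itgb1 and Itgb5 were the integrin genes with the highest levels. Lamb2 and Itga8 had the lowest ratios. Each line gives the 250 bases before the start site in RefSeq (GRCm38.p6, the assembly of mm10), from 5′ to 3′ on the strand of the gene. These are chr9:21015690-21015939 for Icam1, chr9:21029182-21029431 for Icam4, chr8:128685404-128685653 for Itgb1, chr16:33829415-33829664 for Itgb5 and chr9:108479612-108479861 for Lamb2, all on the plus strand, and chr2:12301945-12302194 for Itga8 on the minus strand. In the GENCODE annotation, Icam4 starts at 21029373 and Lamb2 at 108479736, inside their windows. The last part of each of these windows, with the GC box of Icam4, thus lies within the gene in that annotation. Capitals mark GC boxes, the letters GGGCGG on either strand.
Icam1: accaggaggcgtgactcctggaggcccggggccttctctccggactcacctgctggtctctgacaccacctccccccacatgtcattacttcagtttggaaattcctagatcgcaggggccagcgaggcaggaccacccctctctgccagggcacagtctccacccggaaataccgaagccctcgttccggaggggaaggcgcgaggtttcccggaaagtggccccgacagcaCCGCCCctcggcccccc
Icam4: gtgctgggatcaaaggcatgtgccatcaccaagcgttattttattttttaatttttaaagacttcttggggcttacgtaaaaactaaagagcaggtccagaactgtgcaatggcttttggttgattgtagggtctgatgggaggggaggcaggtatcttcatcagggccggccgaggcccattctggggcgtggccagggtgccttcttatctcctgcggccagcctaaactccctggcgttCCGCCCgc
Itgb1: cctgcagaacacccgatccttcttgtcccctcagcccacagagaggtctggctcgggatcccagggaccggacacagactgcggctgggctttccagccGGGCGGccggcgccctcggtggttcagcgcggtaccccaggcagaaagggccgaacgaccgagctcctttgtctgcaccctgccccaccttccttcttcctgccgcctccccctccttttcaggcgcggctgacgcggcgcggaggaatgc
Itgb5: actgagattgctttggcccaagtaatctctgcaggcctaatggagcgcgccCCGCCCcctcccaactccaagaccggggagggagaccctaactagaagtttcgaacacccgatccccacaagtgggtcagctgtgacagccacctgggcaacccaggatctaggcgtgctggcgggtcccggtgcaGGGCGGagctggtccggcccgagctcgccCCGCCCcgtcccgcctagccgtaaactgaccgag
Lamb2: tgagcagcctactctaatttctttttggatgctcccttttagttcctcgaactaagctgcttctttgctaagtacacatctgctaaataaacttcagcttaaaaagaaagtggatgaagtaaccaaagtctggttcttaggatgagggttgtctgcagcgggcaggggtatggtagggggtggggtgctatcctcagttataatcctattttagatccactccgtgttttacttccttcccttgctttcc
Itga8: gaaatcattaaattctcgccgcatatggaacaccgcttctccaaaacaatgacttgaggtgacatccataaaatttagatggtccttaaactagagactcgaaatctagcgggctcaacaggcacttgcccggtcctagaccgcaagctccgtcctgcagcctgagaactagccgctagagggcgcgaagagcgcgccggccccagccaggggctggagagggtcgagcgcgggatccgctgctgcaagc
A GC box was found in the windows of Icam1, Icam4, Itgb1 and Itgb5, of which Itgb5 had 3, and no such letters were in those of Lamb2 and Itga8. This split did not hold for other genes. Of those lower in SHs, Lama5 had 4 GC boxes, Lamb1 had 2 and Itga9 had 0. Among genes that differed little, Itga5 had 2, and Itgav, Itga1 and Lamb3 had 0. The window of Itga9 starts at 118711442, inside the gene, which starts at 118606690 in GENCODE. Those of Lamb3 start at 193301744 and 193301993, after its start at 193294353 in RefSeq. For Itga9 and Lamb3 the windows thus lie at inner start sites. RefSeq windows were matched for 26 of the 41 genes, with 29 start sites. A GC box was in 12 of these 29 windows, 41.4%, beside 32.7% of all 32851 windows of this length in the table. The CCAAT box (CCAAT on either strand) was in 5 of the 29, 17.2%, beside 33.8% of all windows, and the TATA box (TATAAA on either strand) was in 0 of the 29, beside 12.4%. These motifs do not overlap in the 6 windows shown, since GC boxes alone were found there. The G and C content of the windows ran from 43.6% for Lamb2 to 68.0% for Itgb1.

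Of the 27 genes that reached 10 reads, 9 passed 2-fold as lower in SHs with an interval wholly under 0, which was the case for 4.46% of all 15521 genes with as many reads. They were Itga8, Itga9, Itgb2, Itgb3, Lama1, Lama4, Lama5, Lamb1 and Lamb2. In the other direction, Icam4 alone passed 2-fold with its whole interval above 0, beside 2.00% of all genes. Without the criterion of 2-fold, the interval lay under 0 for 12 of the 27 genes, the 9 and also Itgav, Itga1 and Itgb1, beside 15.5% of all genes, and above 0 for 1 gene, beside 16.8%. The median log2 ratio of the 27 genes was -0.31, and that of all 15521 genes was 0.02. Of the 9 lower genes, 7 had fewer than 10 reads in SHs and reached the minimum only with their reads in MHs. For these genes the minimum and the ratio rest on the same reads. The count is therefore a description. The genes split by their number of reads. None of the 11 genes with at least 100 reads passed 2-fold in either direction, beside 1.17% of all such genes that were lower and 0.558% that were higher. Their log2 ratios ran from -0.37 for Itga1 to 0.17 for Lama3. The 9 lower genes and Icam4 were all among the 16 genes with 10 to 99 reads, a class in which 12.3% of all genes were lower and 5.44% higher.

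**Figure D1:**
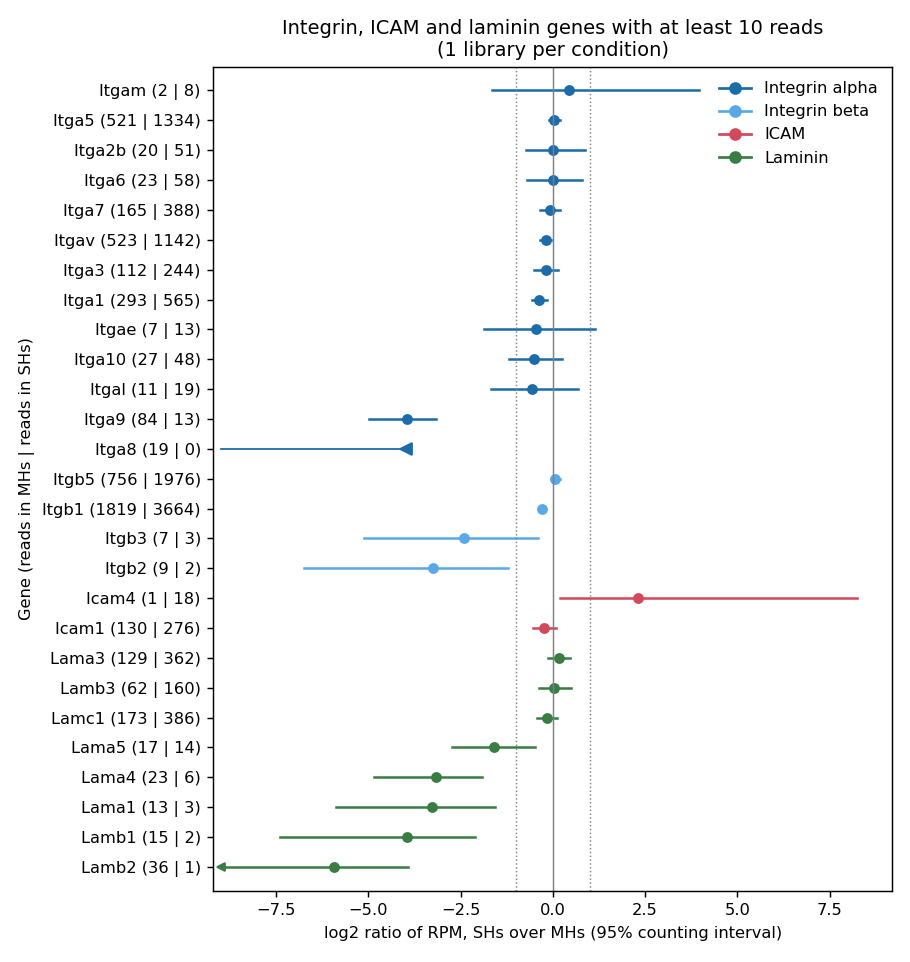
Log2 ratio of RPM in SHs over MHs for the 27 genes with at least 10 reads, with the reads of both libraries beside each name. Points are the ratios with 0.5 reads added, lines are 95% counting intervals, and dotted lines mark 2-fold. The triangle of Itga8, which had 0 reads in SHs, is its ratio against 3 reads, and the line drawn from it is not its 95% interval. Genes with many reads sit near 0, while 5 laminin chains, Itga8, Itga9, Itgb2 and Itgb3 lie under the line of 2-fold lower and Icam4 above that of 2-fold higher.

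Itgb1, on chromosome 8 (128685654 to 128733200 of mm10), encodes the β1 chain, which pairs with most α chains. It had 1819 reads in MHs, or 107.1 RPM, and 3664 reads in SHs, or 86.5 RPM. It was the most abundant of all 41 genes in both libraries and lower in SHs, at a log2 ratio of -0.31 (95% interval -0.39 to -0.23), far less than 2-fold. Itgb5 (chromosome 16, 33829665 to 33949338), whose product pairs with αv to bind vitronectin, had 756 reads in MHs, or 44.5 RPM, and 1976 in SHs, or 46.7 RPM. Its log2 ratio of 0.07 (-0.05 to 0.19) was close to that of all genes, and the interval included 0. Per kilobase of exon, the level of Itgb5 was 12.5 in MHs and 13.1 in SHs, and that of Itgb1 was 26.3 and 21.2, in RPM per kilobase of exon. Itgb1 therefore took 67.2% of the summed level of all 8 β chains in MHs and 61.6% in SHs, and Itgb5 took 32.1% and 38.2%. Together, Itgb1 and Itgb5 held nearly the whole of the β chain level in both libraries.

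The other β chains were rare. Itgb2, the β chain shared by the leukocyte integrins, had 9 reads in MHs (0.530 RPM) and 2 in SHs (0.0472 RPM), for a log2 ratio of -3.24 (-6.74 to -1.22). Itgb3, which pairs with αv and with the αIIb chain of platelets, had 7 reads in MHs (0.412 RPM) and 3 in SHs (0.0708 RPM), for a log2 ratio of -2.42 (-5.12 to -0.41). Both were lower in SHs, with wide intervals that the few reads set. Itgb4, the β chain of the α6β4 laminin receptor of epithelia, had 2 reads in MHs against 5 in SHs. Itgb6, a partner of αv in epithelia, had 1 read in each library. Itgb7, a chain of lymphocyte integrins, had 0 reads in MHs against 2 in SHs, and Itgb8, another partner of αv, had 0 and 3. None of these last 4 genes reached 10 reads, and no ratio is given for them.

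Among the α chains that bind proteins with the RGD motif, Itga5 and Itgav were the main genes. Itga5 (chromosome 15, 103344286 to 103366763), the α chain of the fibronectin receptor, had 521 reads in MHs, or 30.7 RPM, and 1334 in SHs, or 31.5 RPM. Its log2 ratio was 0.04 (-0.11 to 0.19). Itgav (chromosome 2, 83724397 to 83806916), the α chain of the vitronectin receptors, had 523 reads in MHs, or 30.8 RPM, and 1142 in SHs, or 27.0 RPM, for a log2 ratio of -0.19 (-0.34 to -0.04). The interval of Itgav lay under 0, and the difference was small. Per exon length, Itga5 took 43.8% of the summed level of all 18 α chains in MHs and 50.8% in SHs, and Itgav took 20.2% and 19.9%. Itga2b, the αIIb chain of platelets, had 20 reads in MHs (1.18 RPM) and 51 in SHs (1.20 RPM), for a log2 ratio of 0.01 (-0.74 to 0.86). Of the platelet markers Pf4, Ppbp, Gp9, Gp1ba and Gp1bb, none reached 10 reads, and all 5 together had 3 reads in each library. Pf4 and Gp9 had 0 reads in both.

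Itga8 (chromosome 2, 12106632 to 12301922) encodes the α8 chain, known from mesenchymal cells such as stellate cells. It had 19 reads in MHs, or 1.12 RPM, and 0 of 42356444 reads in SHs. Against the limit of 3 reads, or 0.0708 RPM, it was 15.8-fold lower in SHs. That value takes the reads in MHs as exact. The interval of its log2 ratio had no lower end and an upper end of -3.54, which is a smaller difference than 15.8-fold. Itga9 (chromosome 9, 118606690 to 118901003), the α9 chain, which binds tenascin and osteopontin and is known from lymphatic endothelium among other cells, had 84 reads in MHs, or 4.95 RPM, and 13 in SHs, or 0.307 RPM. Its log2 ratio was -3.96 (-4.98 to -3.16), which made it the lower integrin gene with the most reads. Both genes, which had low levels in MHs, were rarer still in SHs. In bulk samples such as these, fewer cells of a type and less RNA per cell cannot be told apart.

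The α chains that bind laminin differed little between the libraries. Itga3 had 112 reads in MHs (6.60 RPM) and 244 in SHs (5.76 RPM), for a log2 ratio of -0.20 (-0.52 to 0.14). Itga6 had 23 reads in MHs (1.35 RPM) and 58 in SHs (1.37 RPM), for a log2 ratio of -0.00 (-0.70 to 0.78). Itga7 had 165 reads in MHs (9.72 RPM) and 388 in SHs (9.16 RPM), for a log2 ratio of -0.09 (-0.35 to 0.19). All 3 intervals included 0. The end of Itga7 overlaps that of Mettl7b, on the other strand, by 9 bases, and Mettl7b had 9944 reads in MHs against 22886 in SHs, many times as many as Itga7. Whether the counting used the strand is not given in the sources used here, and the part of Mettl7b in the reads of Itga7 was not tested.

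Of the α chains that bind collagen, Itga1 (chromosome 13, 114953096 to 115101964), the α1 chain, had 293 reads in MHs, or 17.3 RPM, and 565 in SHs, or 13.3 RPM. Its log2 ratio was -0.37 (-0.58 to -0.16), the lowest of the 11 genes with at least 100 reads, and the interval lay under 0. Pelo, a gene within the span of Itga1 on the same strand, had 245 reads in MHs against 605 in SHs, at a log2 ratio of -0.02 (-0.23 to 0.21) and an interval that overlapped that of Itga1. Its part in the reads of Itga1 was not tested. Itga10 had 27 reads in MHs (1.59 RPM) and 48 in SHs (1.13 RPM), for a log2 ratio of -0.50 (-1.20 to 0.25). Itga2 had 4 reads in MHs against 2 in SHs, and Itga11 had 0 and 1. Itga1 was thus the collagen-binding α chain with the most reads in both libraries, followed by Itga10.

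The α chains of leukocytes were close to the limit of detection. Itgal, the α chain of the leukocyte receptor of ICAM-1, had 11 reads in MHs (0.648 RPM) and 19 in SHs (0.449 RPM), for a log2 ratio of -0.56 (-1.68 to 0.69). Itgae, the αE chain of intraepithelial lymphocytes, had 7 reads in MHs (0.412 RPM) and 13 in SHs (0.307 RPM), for a log2 ratio of -0.47 (-1.86 to 1.14). Itgam, the αM chain of macrophages and neutrophils, had 2 reads in MHs (0.118 RPM) and 8 in SHs (0.189 RPM), for a log2 ratio of 0.45 (-1.64 to 3.95). All 3 intervals included 0 and were wide, so that no difference was detected. Itgax, a chain of dendritic cells and macrophages, had 6 reads in MHs against 0 in SHs, Itgad had 2 and 2, and Itga4, which is found on lymphocytes, had 1 and 1. Markers of lymphocytes were at the same limit, with 3 reads in MHs and 4 in SHs over 10 genes, of which Cd3e, Cd3g, Cd79b, Ms4a1 and Ncr1 had 0 reads in both libraries. The 6 neutrophil markers had 3 reads in MHs against 4 in SHs, with S100a8, Ly6g, Cxcr2 and Mmp8 at 0 in both.

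**Figure D2:**
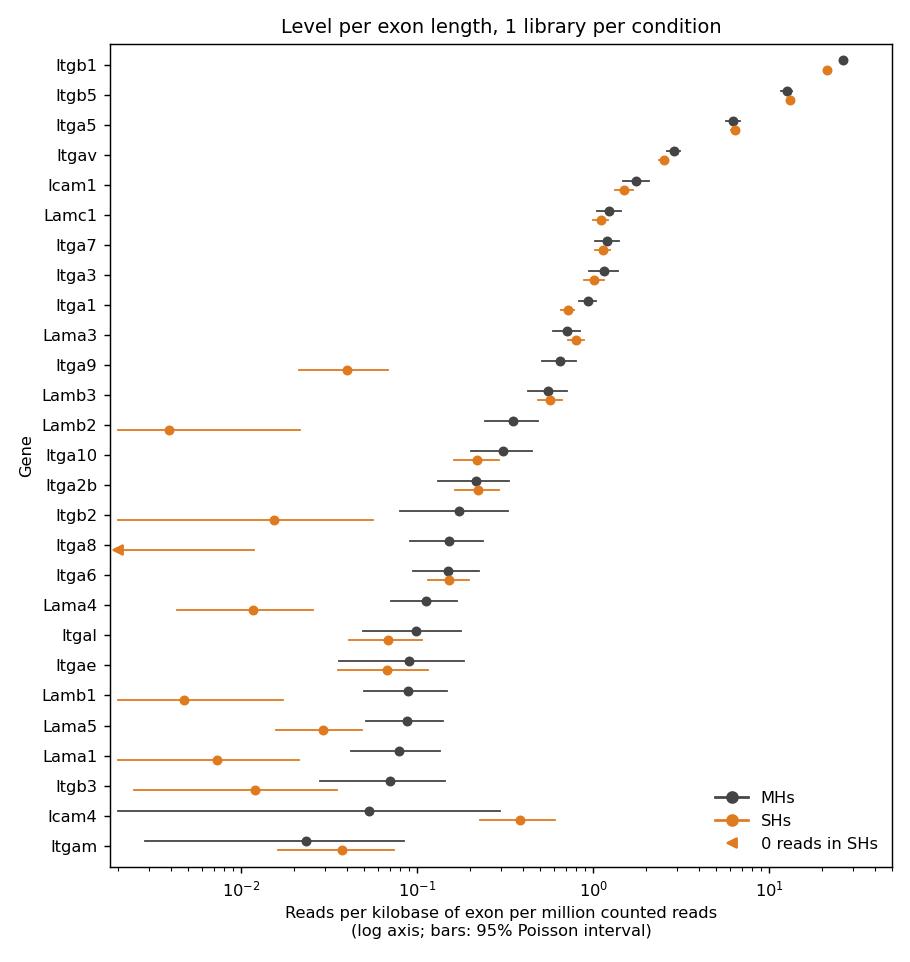
Level of the 27 genes in MHs and in SHs, in RPM per kilobase of exon on a log axis that starts at 0.002, with bars for the 95% Poisson interval of the count, and with genes in the order of their level in MHs. The triangle marks the 0 reads of Itga8 in SHs, and bars are drawn no further than the start of the axis. From Itgb1 to Lama3, the 10 highest genes have close values in both libraries, while Itga9, Lamb2, Itgb2, Itga8, Lama4, Lamb1, Lama5, Lama1 and Itgb3 are lower in SHs and Icam4 is higher.

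Per exon length, the same 10 genes were highest in MHs and in SHs. Itgb1 came first in both, followed by Itgb5, Itga5, Itgav and Icam1. The Poisson intervals of these 5 genes did not overlap within either library. Below them, several neighbours in the order could not be told apart by their counts. In SHs, Itga7 with a level of 1.13, Lamc1 with 1.10 and Itga3 with 1.01 had overlapping intervals, and so did Lamc1, Itga7 and Itga3 in MHs, with 1.23, 1.20 and 1.16. Summed over the 12 α chains that can pair with β1, the level was 13.7 in MHs beside 26.3 for Itgb1, a ratio of 0.520. In SHs the sum was 12.2 beside 21.2 for Itgb1, a ratio of 0.574. These levels depend on which exons are counted as the length of a gene.

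Icam1 (chromosome 9, 21015985 to 21028817), the gene of the surface protein by which SHs were sorted, had 130 reads in MHs, or 7.66 RPM, and 276 in SHs, or 6.52 RPM. Its log2 ratio was -0.24 (-0.54 to 0.08), so that a higher level of Icam1 RNA was not measured in the cells sorted for ICAM-1 protein, and the interval included 0. Icam4, an ICAM best known from red blood cells, lies 555 bases after the end of Icam1 on the same strand (21029373 to 21030595). It had 1 read in MHs, or 0.0589 RPM, and 18 in SHs, or 0.425 RPM, for a log2 ratio of 2.31 (0.19 to 8.23). The lower end of this interval was close to 0, since it rests on the 1 read in MHs. Of the reads of Icam1 and Icam4 together, Icam4 had 1 of 131 in MHs, 0.763% (95% Clopper-Pearson interval 0.0193% to 4.18%), and 18 of 294 in SHs, 6.12% (3.67% to 9.50%), and the intervals overlapped. An antisense gene in the annotation, Gm47079, overlaps the whole of Icam4 and is not among the counted symbols, and its part in the reads was not tested. Icam2, an ICAM of endothelial cells and platelets, had 7 reads in MHs against 0 in SHs. Icam5, known from neurons, had 3 reads in MHs against 5 in SHs.

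The laminin chains fell into a group that differed little and a group that was much lower in SHs. Lama3, Lamb3 and Lamc1 made up the first. Lama3 (chromosome 18, 12333819 to 12583013), the α3 chain of epithelial laminins, had 129 reads in MHs, or 7.60 RPM, and 362 in SHs, or 8.55 RPM, for a log2 ratio of 0.17 (-0.12 to 0.47). Lamb3 (chromosome 1, 193207699 to 193343878), the β3 chain, had 62 reads in MHs, or 3.65 RPM, and 160 in SHs, or 3.78 RPM, for a log2 ratio of 0.04 (-0.38 to 0.50). Lamc1 (chromosome 1, 153218922 to 153332786), the common γ1 chain, had 173 reads in MHs, or 10.2 RPM, and 386 in SHs, or 9.11 RPM, for a log2 ratio of -0.16 (-0.42 to 0.11). All 3 intervals included 0. Lamc3, the γ3 chain, had 2 reads in MHs against 3 in SHs, under the minimum of 10.

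The reads of Lamb3 need care. In the GENCODE annotation the gene spans Hsd11b1 and G0s2, both on the other strand, with 6673 and 1487 reads in MHs and 16839 and 3255 reads in SHs. In the RefSeq table of the same assembly, Lamb3 starts at 193294353 on chromosome 1 and does not reach either gene. Which annotation was used for the counting is not given in the sources used here. The log2 ratios of Hsd11b1, 0.02 (-0.02 to 0.06), and G0s2, -0.19 (-0.28 to -0.10), were also near 0, and their part in the reads of Lamb3 was not tested.

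The second group held Lama1, Lama4, Lama5, Lamb1 and Lamb2. Lamb2 (chromosome 9, 108479736 to 108490530), the β2 chain, a chain of basement membranes of vessels, kidney and muscle, had 36 reads in MHs, or 2.12 RPM, and 1 in SHs, or 0.0236 RPM. Its log2 ratio was -5.92 (-11.83 to -3.92), the lowest among the genes with reads in both libraries. Lamb1 (chromosome 12, 31265234 to 31329644), the β1 chain, had 15 reads in MHs, or 0.883 RPM, and 2 in SHs, or 0.0472 RPM, for a log2 ratio of -3.95 (-7.40 to -2.12). Both β chains other than Lamb3 were therefore nearly without reads in SHs, although the library of SHs was 2.49 times as deep.

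Lama4 (chromosome 10, 38965515 to 39110188), the α4 chain, typical of the basement membrane of blood vessels, had 23 reads in MHs, or 1.35 RPM, and 6 in SHs, or 0.142 RPM, for a log2 ratio of -3.17 (-4.84 to -1.92). Lama5 (chromosome 2, 180176373 to 180225859), the α5 chain, found under endothelium and many epithelia, had 17 reads in MHs, or 1.00 RPM, and 14 in SHs, or 0.331 RPM, for a log2 ratio of -1.59 (-2.73 to -0.49). Lama1 (chromosome 17, 67697259 to 67822647), the α1 chain, best known from the embryo, had 13 reads in MHs, or 0.766 RPM, and 3 in SHs, or 0.0708 RPM, for a log2 ratio of -3.27 (-5.89 to -1.57). Of the 4 laminin α chains with at least 10 reads, these 3 were lower in SHs, with Lama5 the least. Lama2, the α2 chain of muscle and nerve, had 6 reads in MHs against 2 in SHs. The 8 laminin genes with at least 10 reads had a median log2 ratio of -2.38. This value lies between those of Lama5 and Lama4, both of the second group, and no single gene had it. Lama1, Lama4, Lamb1 and Lamb2 reached the minimum of 10 reads only with their reads in MHs, so the median is a description. At a minimum of 100 reads the median of the laminins was 0.042.

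The make-up of the laminin families per exon length differed between the libraries. Lamb3 took 55.8% of the summed level of the 3 β chains in MHs and 98.5% in SHs, while Lamb2 took 35.2% and 0.669%. The level of Lamb3 itself was 0.552 in MHs and 0.571 in SHs, so its share differed mainly through the few reads of Lamb1 and Lamb2. The part of overlapping genes in the reads of Lamb3 was not tested. Lama3 took 70.1% of the α chain level in MHs and 94.0% in SHs, while Lama4 took 11.1% and 1.39%. The summed level of the β chains was 0.990 in MHs and 0.580 in SHs, and that of the α chains was 1.01 and 0.846. For the α chains of the integrins, the largest change of share beside that of Itga5 was Itga9, with 4.53% in MHs and 0.317% in SHs.

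**Figure D3:**
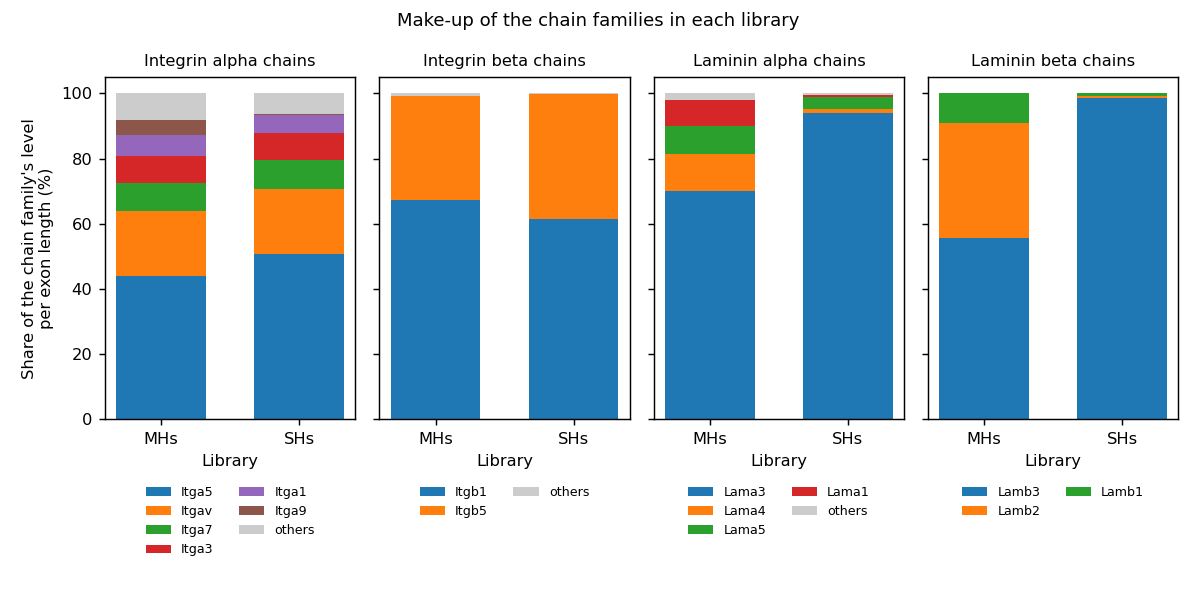
Share of each gene in the summed level of its chain family, in RPM per kilobase of exon, in the library of MHs and that of SHs. Genes under 4% in both libraries are drawn together as others. The bars of both integrin families look alike in MHs and SHs, while Lamb3 takes 55.8% of the laminin β chains in MHs and 98.5% in SHs, and Lama3 takes 70.1% and 94.0% of the laminin α chains.

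Markers of other liver cells moved with the lower genes. All 11 endothelial markers passed 2-fold as lower in SHs, with a summed level of 93.2 RPM in MHs and 4.67 RPM in SHs, a median log2 ratio of -4.86, and Lyve1 at 0 in SHs. Of the 10 macrophage markers, 9 reached 10 reads and 8 of these were lower, with sums over all 10 markers of 22.4 and 1.02 RPM and Marco at 0 in SHs. Of the 10 stellate cell markers, the 7 that reached 10 reads were all lower, with sums over all 10 markers of 20.0 and 2.15 RPM, and none was at 0. The 9 lower genes of integrins and laminins together had 13.1 RPM in MHs and 1.04 RPM in SHs. Of the 8 cholangiocyte markers, none of the 4 that reached 10 reads passed 2-fold with an interval clear of 0 in either direction, and the sums were 21.4 RPM in MHs and 24.6 RPM in SHs. Krt7 and Krt19 had 1 read each in each library, and Cftr was at 0 in SHs. The part of these cells in the lower integrin and laminin genes was not tested.

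The genes that act with integrins and laminins were taken from lists by their known roles. Of the 24 genes of adaptors that link integrins to actin, 22 reached 10 reads. Of these, 1 passed 2-fold as lower in SHs, beside 4.46% of all genes with as many reads. None passed as higher, beside 2.00%, and the median log2 ratio of the 22 was 0.06. The lower gene was Fermt3, the kindlin of blood cells, with 12 reads in MHs against 10 in SHs, for a log2 ratio of -1.57 (-2.95 to -0.25). Tns1 (tensin) had 110.0 RPM in MHs and 112.4 RPM in SHs, and its log2 ratio was 0.03 (-0.05 to 0.11). Tln1, the talin that switches integrins on, had 94.1 RPM in MHs and 105.0 RPM in SHs, a log2 ratio of 0.16 (0.08 to 0.24). Fermt2, the kindlin of most tissues, had 93.4 RPM in MHs and 84.9 RPM in SHs, a log2 ratio of -0.14 (-0.22 to -0.05). Adaptors of high level thus differed by far less than 2-fold, as the main integrin chains did.

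Of the 15 other genes of basement membranes and laminin receptors, 13 reached 10 reads. Of these, 3 passed 2-fold as lower in SHs, beside 4.46% of all genes, and none as higher, beside 2.00%. The median log2 ratio of the 13 was -0.07. Ntn4, a laminin-like netrin, had 78 reads in MHs against 5 in SHs, for a log2 ratio of -5.15 (-6.94 to -4.00). Nid1, which joins laminin to collagen IV, had 49 reads in MHs against 24 in SHs, for a log2 ratio of -2.33 (-3.12 to -1.62). Hspg2, which encodes perlecan, had 201 reads in MHs against 153 in SHs, for a log2 ratio of -1.71 (-2.03 to -1.40). The genes of this list with the most reads were not among the lower ones. Col18a1 had 923.1 RPM in MHs and 1068 RPM in SHs, Dag1, the dystroglycan receptor of laminin, had 91.5 and 89.2 RPM, and Agrn had 41.9 and 40.0 RPM.

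Of the 16 integrin ligands outside the laminins, 12 reached 10 reads. Of these, 3 passed 2-fold as lower in SHs, beside 4.46% of all genes, and none as higher, beside 2.00%. The median log2 ratio of the 12 was -0.10. Vwf, which endothelial cells and platelets carry, had 30 reads in MHs against 5 in SHs, for a log2 ratio of -3.79 (-5.63 to -2.52). Vcam1 had 16 and 7, for a log2 ratio of -2.46 (-4.03 to -1.15). Emilin1 had 70 and 31, for a log2 ratio of -2.48 (-3.15 to -1.86). Plasma proteins that hepatocytes secrete had the most reads of this list. Fga, Fgb and Fgg, the fibrinogen chains, had log2 ratios from -0.10 to -0.07. Fn1 (fibronectin), a ligand of α5β1, had 1668 RPM in MHs and 1707 RPM in SHs, and Vtn (vitronectin), a ligand of αvβ5, had 3098 and 3200 RPM. Fn1 and Vtn were picked after their values were seen, as ligands of the main integrin chains.

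**Figure D4:**
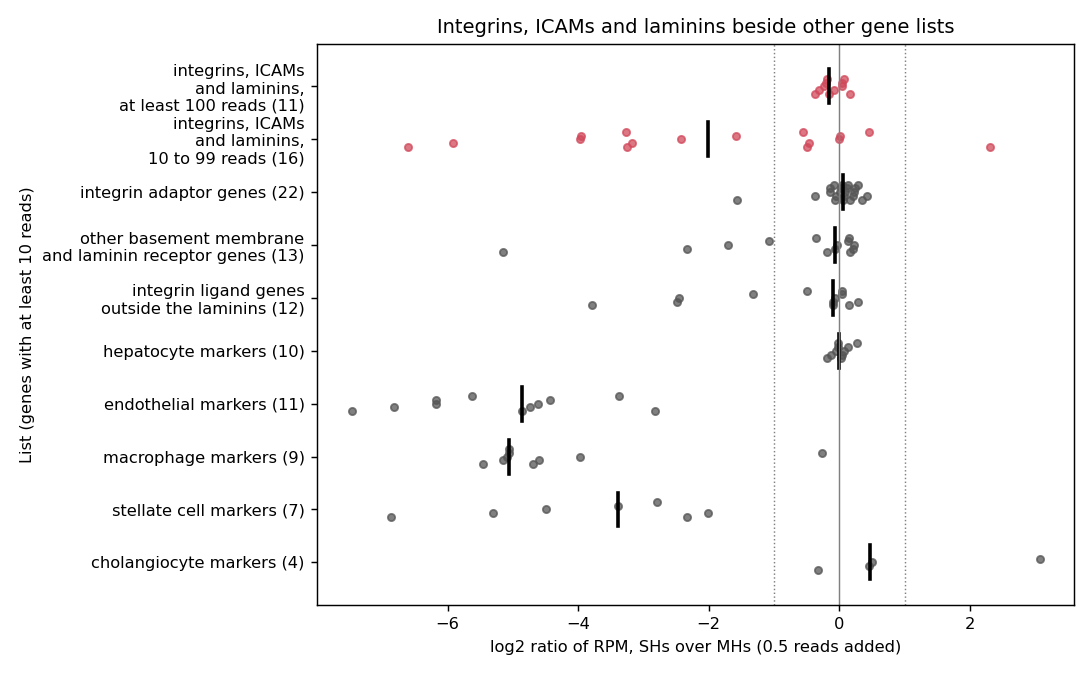
Log2 ratio of RPM in SHs over MHs, with 0.5 reads added, of each gene with at least 10 reads, for the integrins, ICAMs and laminins in 2 classes of reads (red) and for the other lists (grey), with the number of genes in parentheses and the median as a black bar. Genes with 0 reads in 1 library, such as Itga8 and Lyve1 in SHs, are drawn at the ratio with added reads. The 11 genes with at least 100 reads lie near 0 with the adaptors and hepatocyte markers, and the 16 with fewer reads spread to the range of the endothelial, macrophage and stellate cell markers.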

How the data were processed

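Poly(A) RNA of 1 sample of MHs and 1 of SHs was measured, and for each the authors deposited whole read counts per gene symbol, not normalized. Alignment to mm10 with CLC Genomics Workbench and RPKM values are named in the methods. The program and annotation behind the deposited counts are not given in the sources used here. RPM, log2 ratios with 0.5 added reads and Clopper-Pearson intervals were computed with scipy 1.17.1 (Python 3.11.15; pandas 2.3.3; numpy 2.4.6) and were tested on simulated data. Positions and exon lengths came from GENCODE M21 (mm10), in which all 41 symbols were found, and start regions from RefSeq. The listed symbols Adgre1 and Tns2 were found as Emr1 and Tenc1. Of the 41 genes, those with at least 10 reads were named with their values and the others with their reads alone, except an item that is not reported here, and of each list the genes past 2-fold and up to 3 with the most reads. Also named were markers, overlapping genes and, after their values were seen, Fn1 and Vtn. The genes and lists were chosen with earlier results of these data known. Alternatives were scaling by edgeR 4.0.16 (TMM, in R 4.3.3), by DESeq2 1.42.0 (size factors) and without the 10 genes with the most reads, other read minimums, folds and added reads, and another exon length.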

Additional observations from a re-analysis of the deposited data

How the results depend on the processing

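No paired analysis was possible because each kind of cell had 1 library. Under the scalings by TMM, by DESeq2's size factors and without the 10 genes with the most reads, 9 genes were lower and 1 higher, each of the 27 ratios stayed within its interval, and none of the 27 intervals changed its side of 0. These scalings moved the median of all genes by -0.02, -0.02 and 0.03 on the log2 scale. With 2 reads added, each of the 27 ratios also stayed within its interval. At 1.5-fold 9 genes were lower, and at 4-fold 8 were. The minimum of reads mattered most. At a minimum of 100 reads, 0 genes were lower and 0 higher, since each of the called genes has fewer reads, and the median log2 ratio was -0.16 over the remaining genes, -0.19 over the integrins and 0.042 over the laminins, where the sign turned because Lama3, Lamb3 and Lamc1 alone were left. With at least 1 read, the median of the genes was -0.50, and 12 genes were lower. The chains of leukocytes were left out as an alternative that was chosen after seeing the data, and the median of the integrins was then -0.20. With Itga8 at its bound in place of the added reads, the median of the 27 genes stayed at -0.31. By the length of the longest transcript, 9 of the 10 highest genes in MHs and 10 of 10 in SHs were the same. Depth limits the genes with few reads most. Between the libraries, preparation, sorting and sequencing run cannot be told apart from the kind of cell.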

Other observations

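Some of these genes lie side by side on a chromosome and on the same strand. Itga1 and Itga2 on chromosome 13 are 20995 bases apart, and Itga1 had 293 reads in MHs against 565 in SHs, while Itga2 had 4 and 2. Itgam, Itgax and Itgad on chromosome 7 lie within a short stretch, with 11055 bases between Itgam and Itgax and 3718 between Itgax and Itgad, and all 3 were rare in both libraries.

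Ratios of levels per exon length between integrin chains and between laminin chains were followed in each library. Itgb5 had 4.37 times the level of Itgav in MHs and 5.23 times in SHs. By the length of the longest transcript, the ratio was smaller in both libraries. The levels were then 13.6 for Itgb5 and 4.37 for Itgav in MHs, and 14.2 and 3.82 in SHs. Lama3 had 0.574 times the level of Lamc1 in MHs and 0.722 times in SHs. The level of Lamc1 was 1.24 times the sum of the 3 laminin β chains in MHs and 1.90 times in SHs. That sum is over the whole family and not over chains known to pair with γ1. Lamb3 took 55.8% of it in MHs and 98.5% in SHs.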
